A study of Equus caballus with 28 samples.

Results

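The miRNA eca-miR-21 was followed through the uterus and the conceptus of the mare at day 13 after ovulation. It is 1 of 690 known equine miRNAs in a count table that held 844 miRNAs once the predicted ones were added, and 362 of the known miRNAs had at least 1 read. It was chosen by name after its read counts, rank and share of reads in these same libraries were known, so its levels are given as a description and carry no p-value. It took 507530 of 4313783 miRNA reads over the whole series, which is 11.8%.

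miR-21 is an abundant animal miRNA that is best known for lowering the translation of transcripts of pro-apoptotic and growth-restraining genes, among them PDCD4. It is expressed in epithelium, stroma and immune cells alike, rises in many tissues during growth and inflammation, and is a regular component of extracellular vesicles and body fluids. Around day 13 the equine conceptus is still enclosed in its capsule and moves through the uterine lumen, and the mare must recognise it for the pregnancy to continue.

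Small RNA was sequenced from 28 libraries in 6 groups. The 5 Warmblood mares were each sampled in a pregnant cycle, after insemination with semen of a single stallion, and in an unbred cyclic cycle, with hCG given to induce ovulation in both. The groups were endometrium of cyclic mares (n = 4) and of pregnant mares (n = 5), uterine fluid (UF) of cyclic mares (n = 4) and of pregnant mares (n = 5), the embryo with its capsule removed (n = 5) and the yolk sac (YS) fluid aspirated from it (n = 5). Mares are numbered 1 to 5 by the replicate number of the sample labels, and the cyclic samples of mare 5 were not analysed here. The labels do not state that a replicate number is a mare, and all statements on the same mare rest on taking it so. An endometrial biopsy holds epithelium, stroma, vessels and blood cells, the UF was taken up by a tampon, and the fluids were extracted with another kit than the tissues. Kit and kind of sample cannot be told apart, and neither can fewer cells of a type and less RNA per cell.

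Library totals ran from 61836 to 590593 reads in the endometrium, 62087 to 226308 in UF, 28204 to 44768 in the embryo and 4352 to 14531 in YS fluid. For a miRNA as abundant as eca-miR-21 this depth set only a small counting error. The shallowest library, the YS fluid of mare 4, held 335 eca-miR-21 reads, a share of 7.70% with an exact Clopper-Pearson 95% interval of 6.92 to 8.53%. The spread expected from counting alone was 0.0597 to 0.274 percentage points per group, against 0.712 to 4.86 points (SD) between libraries. These intervals cover counting error only.

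Only 1 row of the table carried the name eca-miR-21, and no row for the opposite arm of its hairpin was used. A row named pred-miR-21 is a numbered prediction with 168 reads in all and was not added to it. miR-590-5p, which shares the seed of miR-21 in other mammals, had 3 reads in cyclic UF, 3 in the embryos and 0 in the other groups. In the RefSeq horse annotation used here for gene names, MIR21 lies within the annotated span of VMP1, which encodes a vacuole membrane protein of autophagy, and the next protein-coding gene is TUBD1, a tubulin gene. That assembly is not the build of the count table, so no coordinates are given.

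The rank of eca-miR-21 was high throughout. It was the most abundant miRNA in 7 of 28 libraries, was among the top 3 in 24 and never ranked below 4. All 5 embryos were among those 7 libraries, together with the endometrium of pregnant mare 5 and the UF of cyclic mare 2.

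In the endometrium of cyclic mares, eca-miR-21 took 11.7, 10.6, 8.08 and 10.1% of miRNA reads in mares 1 to 4. In the endometrium of pregnant mares the shares were 13.8, 12.4, 11.4, 16.5 and 15.3% in mares 1 to 5. The ranges met only narrowly, since cyclic mare 1 lay above pregnant mare 3 and no other cyclic sample reached the lowest pregnant one. Group means were 10.1% ± 1.52 (SD, n = 4) and 13.9% ± 2.05 (SD, n = 5).

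In the UF of cyclic mares the shares were 7.07, 15.6, 4.12 and 8.94% in mares 1 to 4. The UF of pregnant mares gave 8.24, 14.4, 12.9, 10.6 and 12.0% in mares 1 to 5. Cyclic UF was the most variable group, with mare 2 at 3.79 times the share of mare 3, and its range spanned that of pregnant UF. The means were 8.93% ± 4.86 (SD, n = 4) and 11.6% ± 2.33 (SD, n = 5).

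In the embryos, eca-miR-21 made up 13.4, 21.7, 11.4, 11.2 and 11.7% of miRNA reads in mares 1 to 5, with a mean of 13.9% ± 4.47 (SD, n = 5). The embryo of mare 2 stood apart, and without it the mean was 11.9%. In YS fluid the shares were 6.66, 7.23, 5.90, 7.70 and 6.34%, with a mean of 6.76% ± 0.712 (SD, n = 5). Every YS fluid library lay below all embryos, both groups of endometrium and pregnant UF, and only cyclic UF overlapped it.

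**Figure D1:**
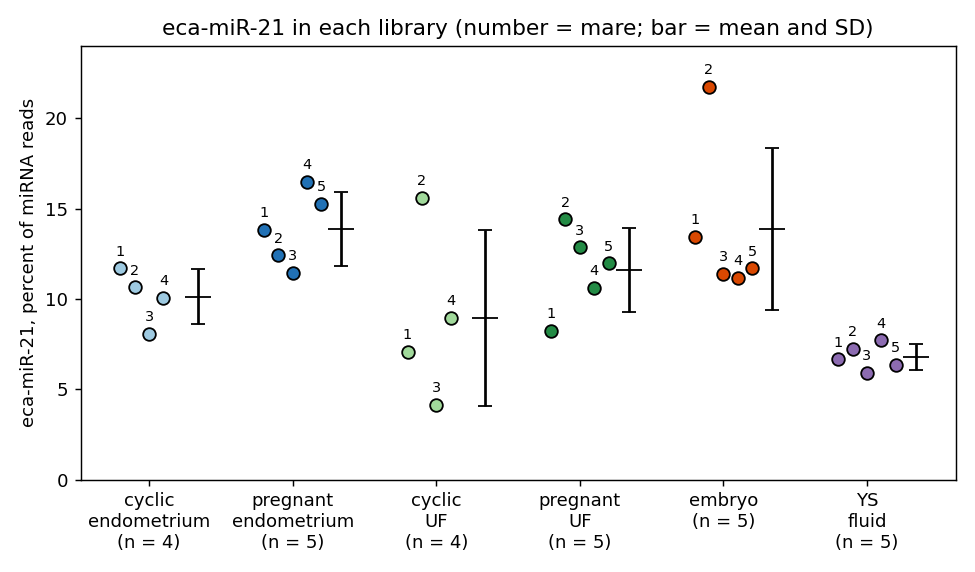
Share of eca-miR-21 among miRNA reads (y axis, percent) in each of 28 libraries, by group (x axis); points are libraries numbered by mare, bars the mean and SD. The YS fluid libraries sit between 5.90 and 7.70%, the embryo of mare 2 reaches 21.7%, and cyclic UF runs from 4.12 to 15.6%.

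Ordered by mean share, the embryo came first with the endometrium of pregnant mares 0.00228 points behind it, followed by pregnant UF, cyclic endometrium, cyclic UF and YS fluid. The difference between neighbours was 2.27 points from pregnant endometrium to pregnant UF, 1.49 points from there to cyclic endometrium, 1.19 points on to cyclic UF and 2.16 points on to YS fluid. Ranges of all 5 neighbouring pairs overlapped. The pooled SD exceeded the difference in 4 of these pairs, and for pregnant endometrium and pregnant UF, with a pooled SD of 2.19 points, both were about equal.

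The predicted miRNAs took 36.3% of reads in the embryo of mare 1 and 5.02 to 8.67% in the other embryos. Over known miRNAs alone, eca-miR-21 made up 21.1% in the embryo of mare 1 and 22.9% in that of mare 2, and 12.2 to 12.6% in the other 3. These 2 embryos were also the highest on all reads, and the group means over known miRNAs alone, from 16.2% in the embryo to 7.15% in YS fluid, kept the order given above. With the most abundant other miRNA left out of each total, the embryo at 15.1% came behind pregnant endometrium at 17.1%.

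What ranked beside eca-miR-21 differed between the groups. In both endometrium groups and in UF the leading row by mean share was eca-let-7a, a member of the let-7 family linked to differentiation. In cyclic endometrium it took 19.0%, ahead of eca-let-7c with 13.3%, and eca-miR-26a followed eca-miR-21 with 8.41%. The same order held in cyclic UF, with 17.2, 17.2 and 6.14%, and in pregnant UF, with 18.1, 12.3 and 8.23%. eca-let-7a took 19.0% ± 3.02 (SD, n = 5) in pregnant endometrium, where eca-miR-21 came second and eca-let-7c followed with 12.0% ± 2.79. let-7a and let-7c are nearly identical in sequence, so their split between rows is uncertain. In the embryo eca-miR-21 led, followed by eca-miR-200b of the epithelial miR-200 family with 7.70% ± 1.67 and by eca-miR-26a with 7.42% ± 2.59. In YS fluid eca-miR-92a of the miR-17/92 family led with 22.6% ± 5.46, and eca-miR-21 came second. The lead of eca-miR-21 over the next miRNA within an embryo ran from 1.06-fold to 2.42-fold.

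Ratios of reads within a library do not depend on the scaling of libraries, and 4 abundant miRNAs were used as denominators, chosen after their values were seen. Over eca-miR-26a, the ratio of eca-miR-21 had a median of 1.28 in cyclic endometrium, 1.62 in pregnant endometrium, 1.26 in cyclic UF, 1.36 in pregnant UF, 1.79 in the embryo and 1.71 in YS fluid. Over all libraries it ran from 0.910 to 3.65, and the ranges of the groups overlapped. Over eca-let-7a, the ratio was 0.399 to 0.644 in cyclic endometrium, 0.527 to 1.07 in pregnant endometrium, 0.155 to 1.16 in cyclic UF and 0.479 to 0.878 in pregnant UF. It was 13.4 to 122 in the embryo and 1.40 to 11.6 in YS fluid, where no library overlapped the uterine ones. The fewest eca-let-7a reads in an embryo were 80, so the highest ratio rests on a small denominator.

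Over eca-miR-200b, the ratio was 4.97 to 5.79 in cyclic endometrium and 6.53 to 9.16 in pregnant endometrium, with no overlap. In UF it was 3.44 to 5.54 in cyclic and 3.12 to 7.20 in pregnant mares, which overlapped. The embryo at 1.31 to 2.63 and YS fluid at 0.998 to 2.72 lay below all uterine samples. Over eca-miR-92a, the ratio was 13.3 to 15.8 in cyclic endometrium and 18.4 to 43.8 in pregnant endometrium, again without overlap. In UF it was 3.06 to 20.6 in cyclic and 7.34 to 23.8 in pregnant mares, which overlapped. It was 0.202 to 0.412 in YS fluid against 4.05 to 11.9 in the embryo.

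**Figure D2:**
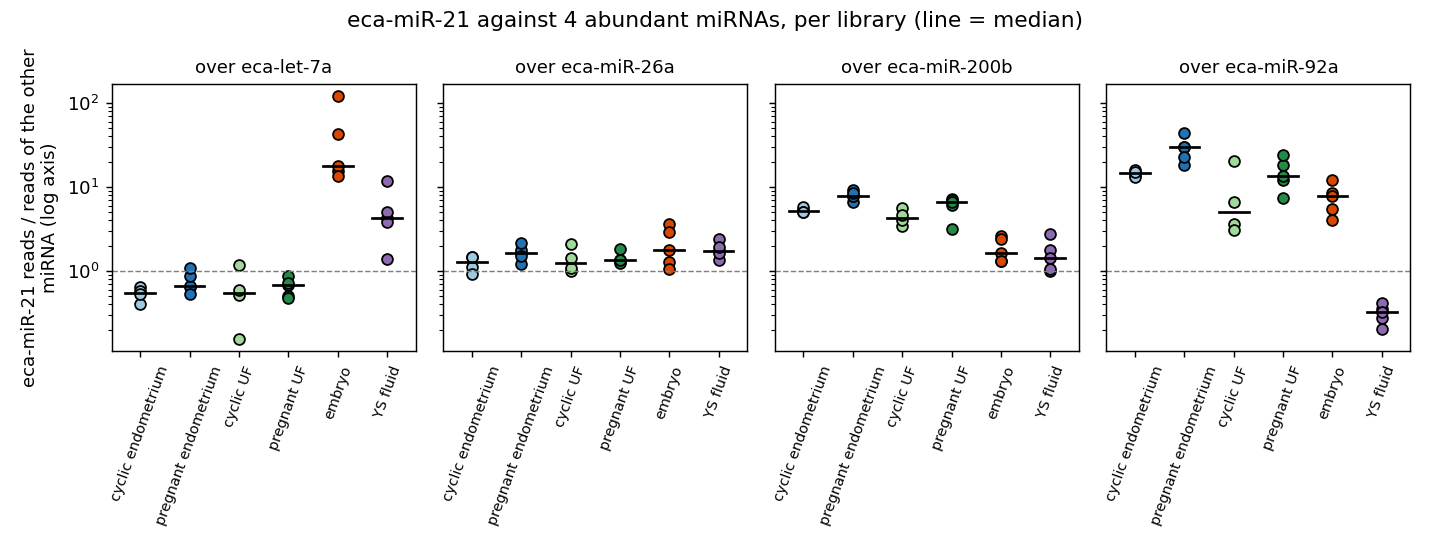
Reads of eca-miR-21 divided by reads of 4 other abundant miRNAs (y axis, ratio, log axis) in each library of the 6 groups (x axis); points are libraries and lines medians. Ratios over eca-let-7a reach 13.4 to 122 in the embryo and stay at or below 1.16 in the uterus, while ratios over eca-miR-26a run from 0.910 to 3.65 in all groups.

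The question of the first comparison was whether the endometrium of the same mare differs between a pregnant and a cyclic cycle. The share of eca-miR-21 was higher in pregnancy in 4 of 4 mares, by 2.13, 1.76, 3.35 and 6.41 percentage points in mares 1 to 4. These are ratios of 1.18, 1.17, 1.41 and 1.64. After scaling by TMM, which sets the libraries to a common level over most miRNAs, cyclic endometrium held 91479 ± 10170 CPM (SD, n = 4; CPM is the read count scaled to a common library total) and pregnant endometrium 149627 ± 18702 (SD, n = 5). On that scale the ranges of 80880 to 103104 and 123954 to 172195 did not overlap. TMM was fitted anew for each pair of groups, so TMM-scaled levels can be compared within a pair only. Values given as plain CPM are without TMM scaling. With the mare as a block, the log2 fold change was 0.65 with a standard error of 0.14, against a median of 0.08 over the 386 miRNAs tested. Among the other miRNAs, 68.1% had a smaller change.

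Marker miRNAs of other cell types were read beside this difference. Their summed share was 5.03 to 6.67% in cyclic and 4.92 to 7.21% in pregnant endometrium for 6 epithelial miRNAs, and 2.43 to 3.84% and 1.75 to 5.69% for 7 of smooth muscle and stroma. The last list holds eca-miR-199a-3p and eca-miR-199b-3p, rows with nearly the same reads (14759 and 14728 in pregnant endometrium), and with these counted once it summed to 1.62 to 2.69% and 1.24 to 4.62%. For 5 leukocyte miRNAs it was 0.196 to 0.327% and 0.282 to 0.347%, for 4 erythrocyte miRNAs 0.650 to 1.35% and 0.267 to 1.13%, and for 2 endothelial miRNAs 0.252 to 0.395% and 0.160 to 0.482%. Within the leukocyte list, eca-miR-155 had a mean of 1551 plain CPM in cyclic and 2431 in pregnant endometrium, and eca-miR-223 of 312 and 317. The means of eca-miR-142-5p, eca-miR-142-3p and eca-miR-150 were lower in pregnancy. Both eca-miR-155 and eca-miR-223 are also in the companion list below. All of these markers were detected in both groups, and the ranges of each summed list overlapped. The plain CPM of eca-miR-155 did not overlap, at 1458 to 1681 in cyclic and 1820 to 2747 in pregnant endometrium. The part of the markers in the difference was not tested.

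In UF the share was higher in pregnancy in 3 of 4 mares. The differences were 1.17, −1.20, 8.73 and 1.68 points in mares 1 to 4, and the largest was that of mare 3, whose cyclic UF held the lowest share of the series. The TMM-scaled level was 83430 ± 32317 CPM (SD, n = 4) in cyclic and 116837 ± 21217 CPM (SD, n = 5) in pregnant UF, and the groups overlapped. The log2 fold change with mare as a block was 0.58 with a standard error of 0.29, and without mare 3 it was 0.25. Whether the change in UF differed from that in the endometrium was not tested.

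**Figure D3:**
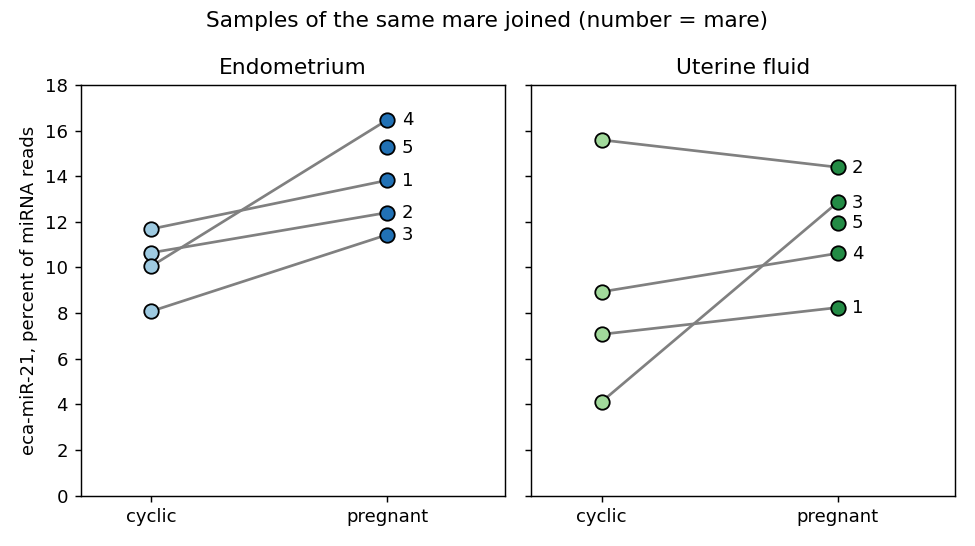
Share of eca-miR-21 among miRNA reads (y axis, percent) in the cyclic and the pregnant cycle (x axis), in endometrium and UF, with samples of a mare joined and numbered; mare 5 has a pregnant sample only. All 4 endometrial lines rise, by 1.76 to 6.41 points, and 3 of 4 lines rise in UF.

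UF was next set against the endometrium that surrounds it. In pregnancy the share of eca-miR-21 was higher in UF in 2 of 5 mares, and in the cyclic cycle in 1 of 4. The log2 fold change of UF over endometrium was −0.37 with a standard error of 0.19 in pregnant mares and −0.37 with a standard error of 0.29 in cyclic mares. The cyclic value was 0.02 without mare 1 and −0.14 under RLE and under DESeq2. In both cycles the TMM-scaled ranges of fluid and tissue overlapped. In pregnant UF the smooth muscle and stroma markers summed to 0.0364 to 0.807%. With eca-miR-199a-3p and eca-miR-199b-3p counted once this was 0.0275 to 0.567%. The epithelial list summed to 6.55 to 9.07% there, leukocytes to 0.171 to 0.279%, erythrocytes to 0.0519 to 0.325% and endothelium to 0.000742 to 0.0316%. The part of these markers was not tested. Of the other miRNAs, 21.8% had a smaller change between pregnant UF and endometrium than eca-miR-21.

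The conceptus was compared with the uterus of the same mare. The share of eca-miR-21 in the embryo was above that in the endometrium in 1 of 5 mares, mare 2, by 9.32 points. The differences were −0.371 points in mare 1, −0.0608 in mare 3, −5.29 in mare 4 and −3.58 in mare 5. On the TMM scale the difference was larger, with 88657 ± 31134 CPM (SD, n = 5) in the embryo and 217913 ± 7703 CPM (SD, n = 5) in the endometrium, and no overlap. The same endometrium libraries had a mean of 149627 CPM when scaled with cyclic endometrium, so these levels hold within their pair only. The log2 fold change was −1.30 with a standard error of 0.22 under TMM, −0.80 under RLE size factors and −0.04 on plain CPM.

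These scalings differ in where they put the typical miRNA. TMM factors were 1.47 to 1.85 in the embryo and 0.556 to 0.759 in the endometrium, and the median log2 fold change of all 359 miRNAs tested was −1.03 under TMM and −0.56 under RLE, a shift of 0.47. Relative to that median, the log2 fold change of eca-miR-21 was −0.27 under TMM and −0.24 under RLE. Of the other miRNAs, 48.3% had a lower log2 fold change than eca-miR-21, which places it near the middle of all miRNAs.

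Against pregnant UF, the embryo held the higher share in 3 of 5 mares. The log2 fold change of the embryo over UF was −1.23 with a standard error of 0.33 under TMM, with overlapping groups, −0.52 under RLE and 0.23 on plain CPM, so its direction turned with the scaling. The median over all miRNAs was −0.23 under TMM and 0.37 under RLE. Relative to these medians, the log2 fold change of eca-miR-21 was −0.9998 under TMM and −0.89 under RLE.

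YS fluid gave a lower level than the embryo, the endometrium and the UF of pregnant mares under each scaling used. Its share lay below that of the embryo, the UF and the endometrium in 5 of 5 mares, with differences from the embryo of the same mare of −14.5 to −3.48 points. Against the embryo the TMM-scaled level was 54649 ± 10259 CPM (SD, n = 5) compared with 179559 ± 76239 CPM (SD, n = 5), with no overlap, and the log2 fold change was −1.72 with a standard error of 0.27. It was −0.99 on plain CPM and −1.52 under RLE. Against the endometrium of pregnant mares it was −3.02 with a standard error of 0.33, −1.03 on plain CPM and −2.23 under RLE. Against pregnant UF it was −2.53 with a standard error of 0.30, −0.76 on plain CPM and −1.80 under RLE. RLE moved the median over all miRNAs by 0.82 against the endometrium, 0.68 against UF and 0.16 against the embryo. Relative to the median of all miRNAs, the log2 fold change of eca-miR-21 between YS fluid and endometrium was −2.19 under TMM and −2.22 under RLE. Under TMM, a lower log2 fold change than that of eca-miR-21 was seen in 29.7% of the other miRNAs against the endometrium. These shares were 29.3% against UF and 26.0% against the embryo.

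**Figure D4:**
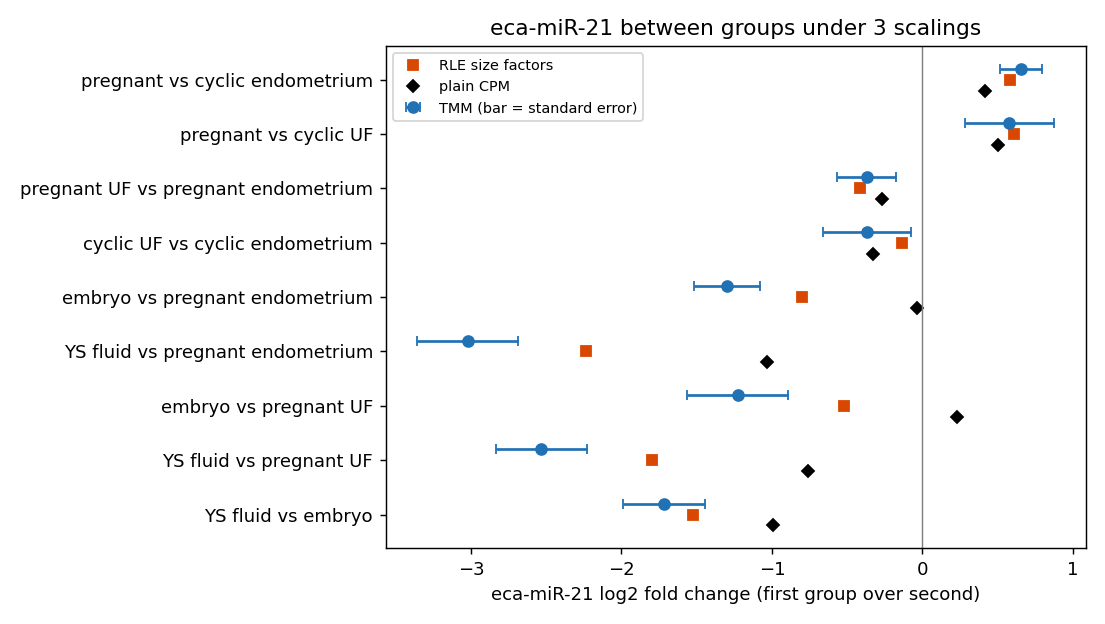
Log2 fold change of eca-miR-21 (x axis, first group over second) in 9 comparisons (y axis) under TMM scaling, with its standard error as a bar, and under other scalings as separate symbols. The 3 YS fluid comparisons stay below 0 under each scaling, while the embryo against UF runs from −1.23 to 0.23.

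The markers also differed between conceptus and uterus. The leukocyte list summed to 0.00483 to 0.0193% in the embryo, with 3 of its 5 miRNAs detected. Smooth muscle and stroma summed to 0.0246 to 0.114% there, with 5 of 7 detected. With eca-miR-199a-3p and eca-miR-199b-3p counted once this was 0.0156 to 0.0797%. Erythrocyte markers summed to 0.0112 to 0.0314% in the embryo. Early embryo miRNAs summed to 1.20 to 6.53% in the embryo (median 4.10%) and 3.49 to 26.4% in YS fluid (median 6.10%). Among them, eca-miR-371-5p ran from 3647 to 142857 plain CPM in YS fluid. The list summed to at most 0.00322% in any uterine library. The epithelial list summed to 9.37 to 13.2% in the embryo. Of its 6 members, eca-miR-200b, eca-miR-200a and eca-miR-429 had higher mean plain CPM in the embryo than in pregnant endometrium, eca-miR-200b at 76976 against 17544. eca-miR-200c at 9503 against 22538, eca-miR-141 and eca-miR-205 had lower means. The part of these differences in the level of eca-miR-21 was not tested.

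A list of 10 miRNAs often described with miR-21 in inflammation, immune response and hypoxia served as companions, and 9 of the names matched a row. The name without a row was miR-210. Calls used edgeR's quasi-likelihood test with Benjamini-Hochberg adjustment, with the false discovery rate (FDR) held to 0.05 or less and a change of 2-fold or more. Between pregnant and cyclic endometrium 1 of 9 companions was called, against 3.37% of all miRNAs tested. The companions are all known miRNAs, and for known miRNAs only 2 were called in all, 1 of them a companion. The companion called was eca-miR-146b-5p, an inhibitor of innate immune signalling. Its TMM-scaled level was 1239 ± 568 CPM (SD, n = 5) in pregnant and 525 ± 550 CPM (SD, n = 4) in cyclic endometrium. Its log2 fold change in edgeR was 1.57 with an adjusted p of 8.09e-05, although the groups overlapped. Its plain CPM was higher in pregnancy in mares 1 to 3 and lower in mare 4, with 1405 in the cyclic and 778 in the pregnant cycle. This call was lost without the mare as a block, with a minimum count of 10, with the 28 libraries in one fit and without mare 2, with adjusted p-values of 0.310, 0.121, 0.223 and 0.186 in edgeR. eca-miR-155, a regulator of lymphocyte and macrophage activation, passed the FDR but not the fold threshold. It had a log2 fold change of 0.97 (SE 0.26) and an adjusted p of 0.00523 in edgeR. Its TMM-scaled level did not overlap between pregnant endometrium at 2649 ± 584 CPM (SD, n = 5) and cyclic endometrium at 1425 ± 270 CPM (SD, n = 4). For the other companions above 1000 CPM, the log2 fold change was 0.24 for eca-miR-181b, 0.20 for eca-miR-221 and −0.12 for eca-miR-31, with adjusted p-values of 0.800, 0.800 and 0.915 in edgeR. The paper reported eca-miR-221 and eca-miR-132 as upregulated in pregnant endometrium, and neither was called here. For eca-miR-132 the log2 fold change was 1.16 with an adjusted p of 0.223 in edgeR.

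In UF, edgeR called 0 of 9 companions between pregnant and cyclic mares, against 4.92% of all miRNAs. The count at an unadjusted p under 0.05 was 1, and DESeq2 called 0 as well. The TMM-scaled level of eca-miR-155 again did not overlap, at 1992 ± 396 CPM (SD, n = 5) in pregnant and 1053 ± 342 CPM (SD, n = 4) in cyclic UF. Its log2 fold change was 0.93 with an adjusted p of 0.236 in edgeR. On plain CPM the UF groups did overlap for eca-miR-155, with 1351 in pregnant mare 1 and 1489 in cyclic mare 2. Among the others above 1000 CPM, the log2 fold change was −0.07 for eca-miR-181b, −0.21 for eca-miR-221, −0.63 for eca-miR-222 and 0.07 for eca-miR-31, with adjusted p-values of 0.551 to 0.996 in edgeR.

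Between pregnant UF and endometrium 3 of 9 companions were called, against 33.7% of all miRNAs. With a minimum count of 10, and for known miRNAs only, 5 of 9 were called, while all miRNAs called numbered 75 and 102. The shares of miRNAs tested were not computed in these settings, so the 5 have no background share. eca-miR-146b-5p was lower in UF by edgeR, with a log2 fold change of −1.99 and an adjusted p of 0.000682. eca-miR-223, a myeloid miRNA, was lower with a log2 fold change of −2.02 and an adjusted p of 0.000705. eca-miR-222, which targets cell cycle inhibitors, was higher with a log2 fold change of 1.75 and an adjusted p of 0.00122. eca-miR-221 passed the FDR but not the fold threshold, with a log2 fold change of 0.92 and an adjusted p of 0.00626, and its groups did not overlap. In the remaining companions above 1000 CPM it was −0.44 for eca-miR-155, 0.19 for eca-miR-181b and −0.25 for eca-miR-31, with adjusted p-values of 0.184, 0.564 and 0.486 in edgeR.

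Between embryo and pregnant endometrium 9 of 9 companions were called, all lower in the embryo, against 71.3% of all miRNAs called and 42.6% called lower. Their median log2 fold change was −5.78, beside −1.03 for all miRNAs and −1.30 for eca-miR-21. A miRNA that is present in the endometrium alone passes the filter on low counts through that group, so the count is a description. The levels that follow are plain CPM, while the fold changes above are on the TMM scale. eca-miR-31, a miRNA of epithelia, had 647.8 to 1050 CPM in the embryos and 5696 to 17946 CPM in pregnant endometrium. eca-miR-221, a paralog of eca-miR-222, had 67.0 to 483 CPM in the embryos and 4004 to 7298 CPM in pregnant endometrium. eca-miR-155 had 48.3 to 139 CPM in the embryos and 1820 to 2747 CPM in pregnant endometrium, and eca-miR-181b, a regulator of lymphocyte development, 0 to 110.5 and 1018 to 1810 CPM. eca-miR-146b-5p had 27.6 to 70.9 and 579 to 1770 CPM, and eca-miR-222 0 to 106 and 193 to 600 CPM. eca-miR-146a, which restrains the same signalling as eca-miR-146b-5p, had 2 reads over the 5 embryos and eca-miR-223 had 3, against 709 and 543 in pregnant endometrium. eca-miR-132 had 0 of 179448 reads over the 5 embryos, which allows up to 16.7 CPM over the group and 67.0 to 106 CPM in a single library, and 71.0 to 108 CPM in pregnant endometrium. The share of eca-miR-21 in the same libraries was 11.2 to 21.7% in the embryos and 11.4 to 16.5% in pregnant endometrium.

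In YS fluid against the embryo 6 companions could be tested and 2 were called, both higher in the fluid, against 35.1% of all miRNAs called and 13.1% called higher. For eca-miR-221 the log2 fold change was 3.75 with an adjusted p of 0.0143 in edgeR, and for eca-miR-222 it was 3.77 with an adjusted p of 0.0444. In the YS fluid of mare 2 eca-miR-221 reached 14113 plain CPM (204 reads), compared with 826 to 1846 CPM in the other 4 libraries, all above the 67.0 to 483 CPM of the embryos. eca-miR-222 reached 4220 CPM (61 reads) there and 0 to 689 CPM in the others, and its groups overlapped. Without mare 2 neither call remained in edgeR, with a log2 fold change of 1.83 and an adjusted p of 0.0570 for eca-miR-221 and of 0.87 and 0.487 for eca-miR-222. The call of eca-miR-222 was also lost without mare 3, 4 or 5 and with the mare as a block. eca-miR-31 had a log2 fold change of −0.43 with an adjusted p of 0.572. eca-miR-21 in that library, at 7.23%, lay within the range of the other YS fluid libraries.

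The miRNAs whose level over the 28 libraries was most like that of eca-miR-21 were listed by Pearson's correlation of log2(CPM + 10) among 74 miRNAs with a mean of at least 1000 CPM. These were eca-miR-101 (0.63), eca-miR-26a (0.62), eca-miR-200a (0.50), eca-miR-30e (0.49) and eca-miR-141 (0.35). Within groups, after the group means were taken out, they were eca-miR-378 (0.65), eca-miR-17 (0.60), eca-miR-660 (0.60), eca-miR-106a (0.58) and eca-miR-20a (0.57). None of the first 5 was among the second 5. The libraries share mares, kits and totals that sum to a fixed amount, and the correlations are a description of these libraries.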

How the data were processed

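Sequencing was done on the MiSeq from 100 ng of RNA per library. As the authors state, adapters were trimmed with cutadapt 1.11, short and low-quality reads were removed, and reads were counted per mature miRNA with miRPro against miRBase and the EquCab2.0 genome. The values deposited by the authors are raw counts per miRNA, without normalization. Counting reads without molecular identifiers leaves PCR copies in, and rows of near-identical miRNAs can exchange reads.

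Shares are percentages of all counted miRNA reads per library, with exact Clopper-Pearson 95% intervals. A count of 0 allows up to 3 reads. Fits used edgeR 4.0.16 (quasi-likelihood, TMM) in R 4.3.3 on miRNAs with at least 1 CPM in as many libraries as the smaller group has, with Benjamini-Hochberg adjustment over all miRNAs tested, calls at FDR 0.05 or below with a 2-fold or larger change. DESeq2 1.42.0 was an alternative. Scripts were tested on simulated data. Pregnant and cyclic samples were blocked by replicate number, taken as the mare, as the study sampled the same mares in both cycles. Deviations of the same replicate number correlated by 0.107 to 0.380 in endometrium and 0.0763 to 0.509 in UF over 4 pairs each. The mean correlation was 0.240 in endometrium and 0.326 in UF. Between different replicate numbers it was −0.0593 and −0.0812. Deviations were taken from each group mean, which ties these values to the former, so they are no separate contrast. Between tissues and fluids, the mean for the same replicate number ran from −0.156 (embryo, pregnant endometrium) to 0.117 (YS fluid, pregnant UF). Tissue comparisons were fitted without a block. All columns of the table were mapped to a sample by name. The miRNA, the companion and marker lists and the tests were chosen with earlier results of these data known. Named miRNAs are eca-miR-21, the top rows beside it by mean share, companions that were called or exceeded 1000 CPM in a group compared, and the 5 miRNAs most like it on each measure. Mature sequences were not used here.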

Additional observations from a re-analysis of the deposited data

Results flagged for a closer look

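In groups of 4 or 5 libraries, the gap of the highest or lowest library to its neighbour was divided by the range and compared with Dixon's 95% value for 48 group and measure pairs. Of these, 6 stood apart, and chance gives about 1 in 20. The share of eca-miR-21 was 21.7% in the embryo of mare 2, a gap of 0.784 of the range, and its ratio to eca-let-7a there was 122. Predicted miRNAs took 36.3% of reads in the embryo of mare 1. In pregnant UF the ratio of eca-miR-21 to eca-miR-26a was 1.82 in mare 2, above the others, and the ratio to eca-miR-200b was 3.12 in mare 1, below the others. The endometrium of pregnant mare 3 had the largest total, 590593 reads.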

How the results depend on the processing

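The log2 fold change of eca-miR-21 kept its sign in 14 of 14 alternatives for pregnant against cyclic endometrium (0.42 to 0.98), pregnant against cyclic UF (0.25 to 0.73), pregnant UF against endometrium (−0.57 to −0.16), the embryo against endometrium (−1.53 to −0.04) and all 3 YS fluid comparisons. For cyclic UF against cyclic endometrium it kept its sign in 12 of 13 and was 0.02 without mare 1. The embryo against UF turned to 0.23 on plain CPM and 0.27 as eca-miR-21 over all other reads. With or without the replicate block, the fold changes of eca-miR-21 moved by less than the spread between libraries. The causes of the other moves were not tested. YS fluid totals of 4352 to 14531 reads left eca-miR-21 a small counting error. There 1 read is 68.8 to 230 CPM, so a single read passes the filter of 1 CPM. Against endometrium, the log2 fold change of eca-miR-21 was −3.41 without a filter and −2.37 with a minimum count of 10. How far depth moved it through the scaling was not tested.

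Pregnant against cyclic endometrium gave 0.98 with the 28 libraries in one fit and 0.42 on plain CPM. The embryo against endometrium gave −0.80 under RLE and under DESeq2, −0.91 with a minimum count of 10, −0.037 on plain CPM and −0.035 over all other reads. The embryo against UF gave −0.52 under RLE and under DESeq2, −0.79 with a minimum count of 10 and −0.77 for known miRNAs only, and −1.15 to −0.81 when a mare was left out (−0.81 without mare 5). YS fluid against endometrium gave −2.23 under RLE, −2.24 under DESeq2, −3.41 without a filter, −2.37 with a minimum count of 10, −2.26 for known miRNAs, −2.22 in one fit, −1.03 on plain CPM and −1.15 over all other reads, and −3.46 to −2.92 when a mare was left out. YS fluid against UF gave −1.80 under RLE and under DESeq2, −1.63 with a minimum count of 10, −2.04 for known miRNAs, −1.88 in one fit, −0.76 on plain CPM and −0.84 over all other reads, and −2.59 to −2.22 when a mare was left out. YS fluid against the embryo gave −1.23 with a minimum count of 10, −1.37 in one fit, −0.99 on plain CPM and −1.11 over all other reads. Without the most abundant other miRNA in the total, the mean share was 12.5% in cyclic endometrium, 17.1% in pregnant endometrium, 10.6% in cyclic UF, 14.2% in pregnant UF, 15.1% in the embryo and 8.76% in YS fluid, which puts pregnant endometrium before the embryo.

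Companions called between pregnant and cyclic endometrium numbered 0 with a minimum count of 10, in one fit and with no replicate block, 2 on FDR alone, and 1 to 2 when a mare was left out (2 without mare 4). Of all miRNAs, 13 were called there, against 3 with a minimum count of 10, 2 for known miRNAs and 0 in one fit or with no replicate block. In UF 15 were called, against 0 with a minimum count of 10, 3 for known miRNAs, 7 in one fit, 0 with no replicate block, and 2 to 26 when a mare was left out (26 without mare 1, 7 without mare 2, 2 without mare 3, 3 without mare 4). Between pregnant UF and endometrium 5 companions were called with a minimum count of 10 and for known miRNAs. Of all miRNAs, 75 and 102 were called in these settings instead of 121. Between embryo and endometrium 140 were called with a minimum count of 10 instead of 256. Between YS fluid and embryo 91 were called, against 40 with a minimum count of 10, 54 with the replicate block and 40 to 74 when a mare was left out. Companions called there numbered 1 with a minimum count of 10 and 1 with the replicate block. They numbered 1 to 2 when a mare was left out (1 without mare 2, 3, 4 or 5). The 1 called without mare 2 was neither eca-miR-221 nor eca-miR-222.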
